A study of Mus musculus with 11 samples.

Results

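The proteasome subunit and assembly genes were taken by symbol, as every gene named Psm, a letter from a to g and a digit, with at least 1 FPKM in at least 2 of the 11 libraries. FPKM counts fragments per kilobase of transcript, corrected for library depth, so levels can be compared between genes. The rule found 49 of the 11442 genes tested. They were 14 core subunits (Psma1 to Psma7 and Psmb1 to Psmb7), 5 immunoproteasome genes (Psmb8, Psmb9, Psmb10, Psme1, Psme2), 20 cap genes (Psmc and Psmd), 4 assembly chaperones (Psmg1 to Psmg4) and 6 others. The 6 others were the activators Psme3 and Psme4, the inhibitor Psmf1, the testis alpha subunit Psma8, Psme2b, and Psmc3ip. Psme2b is a copy of Psme2 with which reads may have been divided, and Psmc3ip is a meiotic recombination factor that only shares the symbol. Of the 50 rows that matched by symbol, Psma8 lay just inside the threshold, at 0.540 to 1.14 FPKM over the libraries, with 5 libraries at 1 FPKM or more. The thymic subunit Psmb11 lay well below the threshold, at 0.0268 to 0.148 FPKM, with 0 libraries at 1 FPKM or more.

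The proteasome is the barrel-shaped protease that degrades proteins tagged with ubiquitin. Alpha and beta subunits form the core, and a cap of ATPases (Psmc) and other subunits (Psmd) binds the tagged protein, removes the tag and feeds the chain in. Cells that meet interferon, and many blood cells without it, exchange the catalytic subunits Psmb5, Psmb6 and Psmb7 for Psmb8, Psmb9 and Psmb10, which together with the activator Psme1 and Psme2 favours peptides for display on MHC class I.

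RNA was sequenced from Kit+ marrow cells of C57BL/6 mice, selected with CD117 beads and held overnight with FLT3, IL-6, IL-3 and mSCF, and the study asked whether inhibitors of FOS and Dusp1 resemble loss of both genes in BCR/ABL cells. Wild-type cells that carried BCR/ABL, the kinase made by the Philadelphia chromosome of leukaemia, with a YFP marker and were sorted for it gave 2 libraries each with imatinib (a BCR/ABL kinase inhibitor), DFC and BCI together, with DFC and BCI, with imatinib, and untreated, the drugs being given for 4 h. Such cells labelled c-Fos-/-Dusp1-/-, from ROSACreERT2 c-Fos fl/fl Dusp1-/- mice, gave 1 library with imatinib and 1 without. A vector control gave 1 library, and the sources used here do not describe its cells further. No group received the drug solvent alone, and DFC and BCI were never given singly. The labels call the treated cells duplicates without saying that they came from separate animals, so p-values measure the spread between these libraries, which may be technical.

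The libraries summed to 459559 to 529427 FPKM, and depth is unknown, since FPKM keep no read counts. Fos and Dusp1 went against the deletion labels. Fos stood at 15.9 FPKM in the library labelled deleted with imatinib and at 21.6 in the one labelled deleted, against 5.09 and 4.81 in untreated BCR/ABL cells. Dusp1 stood at 28.1 and 35.7 FPKM in those labelled deleted libraries, against 8.22 and 8.46 in untreated cells. Summed progenitor markers (Kit, Mpo and 7 more) were 387 FPKM in the library labelled deleted, 1407 and 1070 in untreated cells and 1916 in the vector control, and Kit itself was present in all 11 libraries. Summed late neutrophil markers ranged from 13768 to 14854 FPKM with DFC+BCI, with or without imatinib. The sums were 22433 and 23705 FPKM in untreated cells and 2476 in the vector control. S100a8 and S100a9 made up most of each sum. In these bulk samples fewer cells of a type and less RNA per cell cannot be told apart. B lymphoid markers summed to 1.91 to 14.3 FPKM.

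The 49 genes lie on 16 chromosomes. Together they took 1.06% and 1.09% of all FPKM with imatinib, DFC and BCI, 1.07% and 1.08% with DFC+BCI, 1.13% and 1.06% with imatinib, 0.981% in the library labelled deleted with imatinib, 0.930% in that labelled deleted, 1.12% and 1.10% in untreated cells, and 0.803% in the vector control. The core genes lay close together: the highest by mean over the libraries, Psmb4, a structural beta subunit, averaged 254 FPKM and the lowest, Psmb6, the caspase-like catalytic subunit, 138. Cap genes spread more, with the lid subunit Psmd8 at 159 FPKM and the assembly factor Psmd9 at 11.2. Of the immunoproteasome genes, Psme2 at 181 FPKM, Psmb8 at 174 and Psme1 at 150.0 lay within the range of the core genes, and Psmb9 at 84.5 and Psmb10 at 58.5 lay below it. The assembly chaperones were lower, with Psmg4 highest at 34.4 and Psmg3 lowest at 21.5. Of the others, Psme3 was highest at 91.4 and Psma8 lowest at 0.928.

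**Figure D1:**
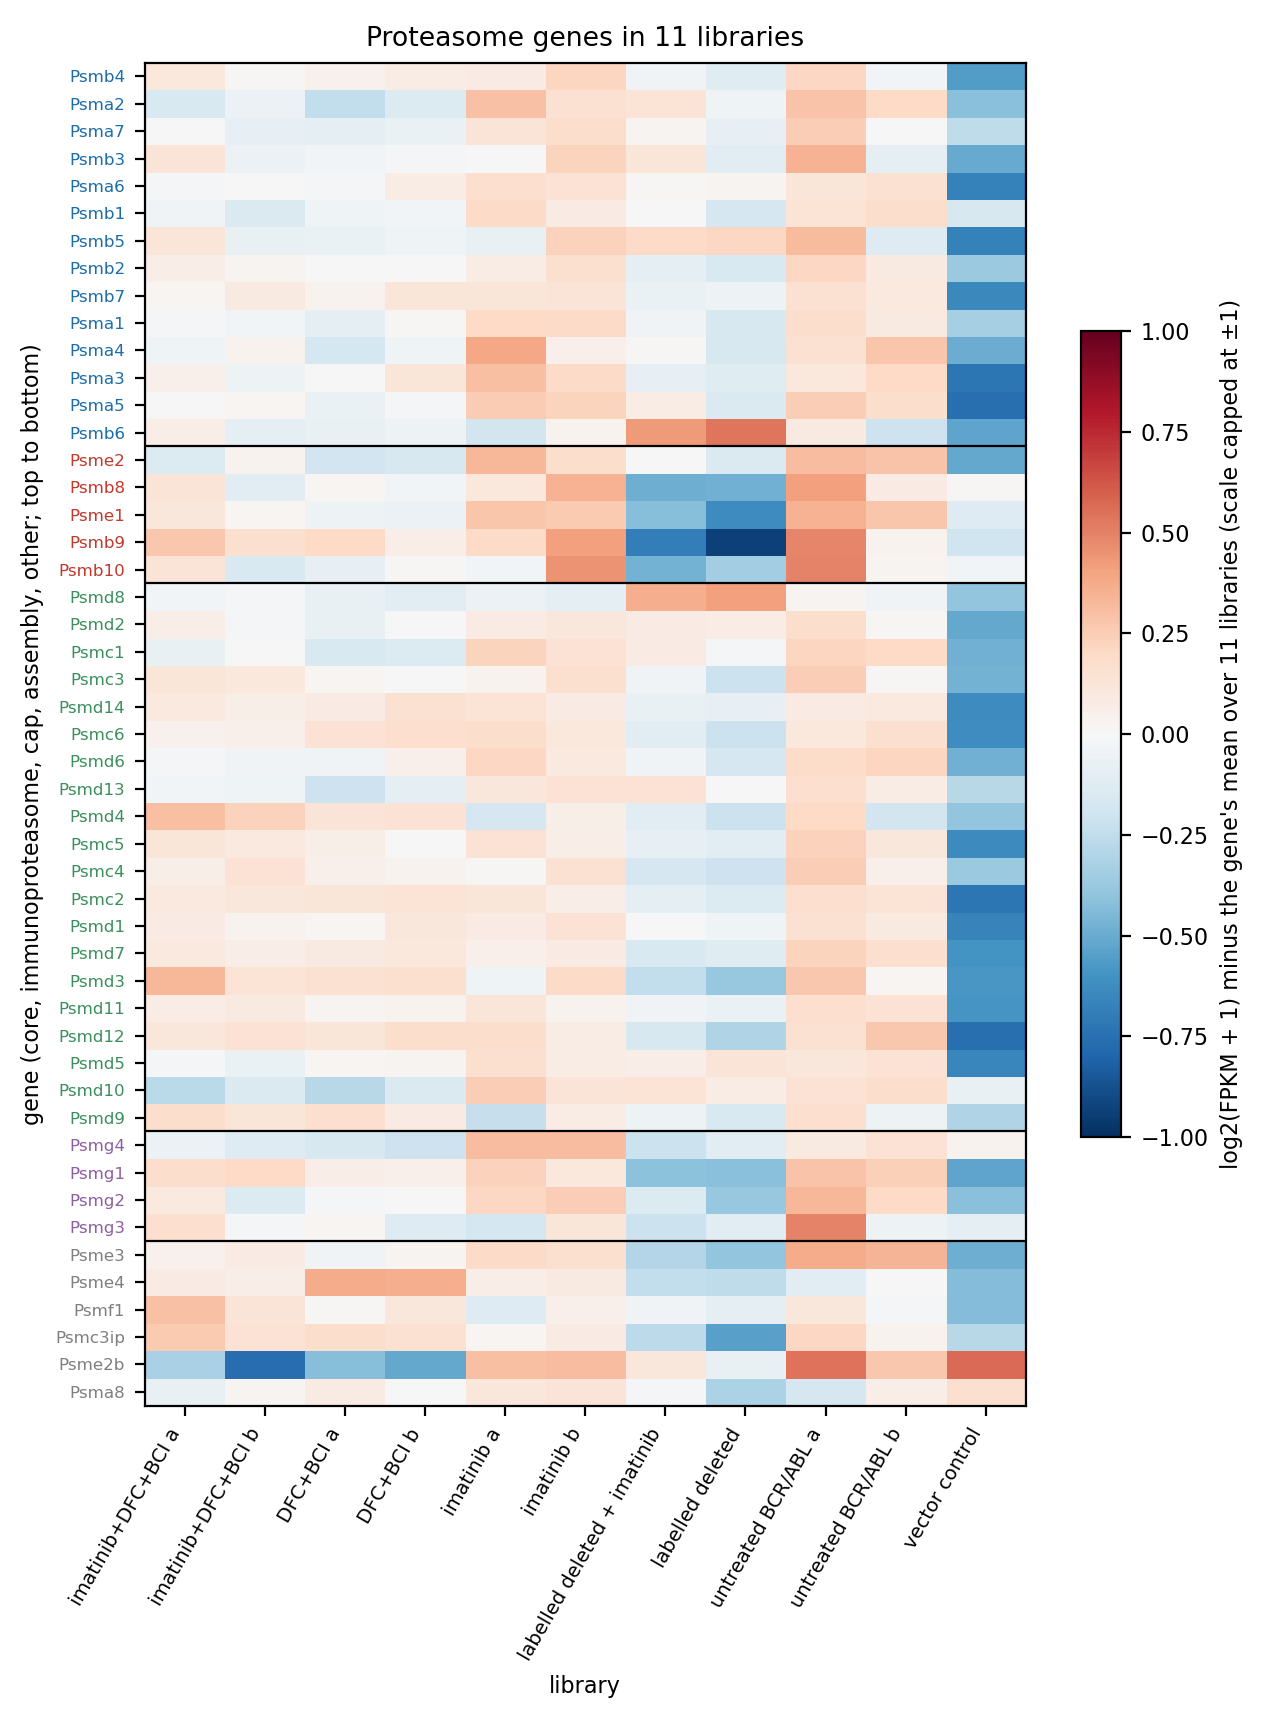
Heat map of the 49 genes (rows, grouped as core, immunoproteasome, cap, assembly and other) in the 11 libraries (columns, with a and b for duplicates); colour is log2(FPKM + 1) minus the gene's mean over the libraries. The vector control is the lowest column for 38 of 49 genes, and Psmb8, Psmb9, Psmb10 and Psme1 are lowest in the 2 libraries labelled deleted.

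Promoter sequences are shown for 3 genes that carry the results below: Psmb9 and Psme1, which were low in both libraries labelled deleted, and Psme4, the gene raised by DFC+BCI. They are RefSeq sequences of GRCm38.p6, from 120 bases before the transcription start to the 30 bases that begin at it, 5′ to 3′ on the strand of the gene. Capitals mark the match nearest to the start among the 4 motifs given here. In Psmb9 they mark CCAAT, the box bound by NF-Y, read on the other strand as ATTGG. In Psme1 they mark the interferon-stimulated response element, searched as GAAA, any 2 bases and GAAA, on the other strand. In Psme4 they mark TGACNNNGC, the antioxidant response element core, on the other strand.
Psmb9, chr17:34187301-34187450, minus strand: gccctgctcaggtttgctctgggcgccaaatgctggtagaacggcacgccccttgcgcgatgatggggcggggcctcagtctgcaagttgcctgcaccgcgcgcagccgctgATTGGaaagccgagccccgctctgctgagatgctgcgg
Psme1, chr14:55578374-55578523, plus strand: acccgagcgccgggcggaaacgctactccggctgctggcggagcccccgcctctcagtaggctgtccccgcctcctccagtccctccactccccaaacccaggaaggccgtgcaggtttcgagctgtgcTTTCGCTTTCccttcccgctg
Psme4, chr11:30771655-30771804, plus strand: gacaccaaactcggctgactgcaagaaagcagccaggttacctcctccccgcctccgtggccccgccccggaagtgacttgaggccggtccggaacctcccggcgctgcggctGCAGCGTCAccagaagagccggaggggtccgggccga
Psmb9 and Tap1, which encodes a peptide transporter, start 226 bases apart on opposite strands. Promoters of 250 bases before to 50 after the start were found for 41 of the 49 genes and searched on both strands. TGACNNNGC was present in 6 of 41 (14.6%), against 12.5% of all 27025 promoters, and GAANNTTC, the heat shock element core, in 7.32% against 7.95%. CCAAT was present in 34.1% against 37.9%. The interferon-stimulated response element was present in 5 of 41 (12.2%), against 3.49%. Among the immunoproteasome promoters only Psme1 had it (1 of 5). The rest were Psmb3 (1 of 11 core), Psmd4 and Psmd9 (2 of 17 cap) and Psmg4 (1 of 3 assembly). These matches describe letters and not bound sites.

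Treatment with DFC+BCI lowered 12 proteasome genes and raised 1. Both subunits of the immunoproteasome activator fell, as did 3 of the 4 assembly chaperones, while 2 of 14 core and 3 of 20 cap genes fell, and the nuclear activator Psme4 rose. On the FPKM + 1 scale the called genes other than Psme2b fell by 13.0% (Psmg1) to 27.9% (Psme2). The genes called lower were 24.5% of the 49, against 18.4% of all tested genes, and the 1 called higher was 2.04%, against 17.8%. Core genes (14.3% lower) and cap genes (15%) lay below the share of all genes. The higher shares rest on classes of few genes, and no class was tested as a set. A gene was called at a limma adjusted p under 0.05 over all 11442 genes, and log2 fold changes are on the log2(FPKM + 1) scale. The median log2 fold change was -0.13 over the 49 genes and -0.03 over all genes, and 40 of 49 values were below 0. With quantile normalisation both medians were close, at -0.04 for the 49 and -0.05 for all genes, with 32 of 49 below 0. Without DFC+BCI library a, 7 genes were called lower. Summed late neutrophil markers were lower in the same libraries (above), and their part in these changes was not tested.

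Psme1 and Psme2, the activator ring that caps the core without ATP, fell furthest among the immunoproteasome genes. Psme2 had 156 and 160.1 FPKM with DFC+BCI, against 221 and 218 in untreated cells (log2 fold change -0.47, SE 0.0806, adjusted p = 0.00421). Psme1 had 142 and 141 FPKM with DFC+BCI, against 188 and 179 in untreated cells (-0.37, SE 0.0590, adjusted p = 0.00320). For both genes the treated libraries lay below both untreated ones, which does not set them apart, since this also held for Psmb8 and Psmb10. The 3 inducible catalytic subunits did not pass the test. Psmb8, the chymotrypsin-like inducible subunit, had 174 and 168 FPKM with DFC+BCI, against 228 and 182 in untreated cells (-0.25, 95% interval -0.57 to 0.06, adjusted p = 0.184). Psmb9 had 93.4 and 85.3 FPKM with DFC+BCI, against 114 and 83.3 in untreated cells (-0.13, interval -0.48 to 0.22). Psmb10 had 54.0 and 57.8 FPKM with DFC+BCI, against 81.1 and 58.5 in untreated cells (-0.30, interval -0.77 to 0.17). The untreated duplicates differed by more than the treated ones for these 3 genes. Over the 5 genes the median log2 fold change was -0.30.

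Among the core genes, Psma2 and Psma5 of the alpha ring, which gates the barrel, were called lower. Psma2 had 179.8 and 193 FPKM with DFC+BCI, against 260.3 and 245 in untreated cells (-0.43, SE 0.0767, adjusted p = 0.00479). Psma5 had 144 and 149.8 FPKM with DFC+BCI, against 180.2 and 171 in untreated cells (-0.25, SE 0.0565, adjusted p = 0.0119). The other 12 core genes did not pass, with a median of -0.15 over all 14, and the constitutive catalytic subunits Psmb5, Psmb6 and Psmb7 had log2 fold changes of -0.15, -0.0033 and -0.05. Among the cap genes, Psmc1, an ATPase of the base, had 91.0 and 92.1 FPKM with DFC+BCI, against 118 and 116 in untreated cells (-0.35, SE 0.0584, adjusted p = 0.00375). Psmd10 (gankyrin), an assembly factor of the base that is not in the finished particle, had 14.0 and 15.5 FPKM with DFC+BCI, against 19.1 and 19.6 in untreated cells (-0.37, SE 0.0799, adjusted p = 0.0106). The lid subunit Psmd13 had 73.8 and 79.8 FPKM with DFC+BCI, against 95.7 and 90.1 in untreated cells (-0.27, adjusted p = 0.0136). For these 5 genes the groups did not overlap, but neither did they for uncalled genes such as Psma1, Psmb1, Psmd6 and Psmd7. The share of all tested genes without overlap in this comparison was not counted. The calls of Psma5 and Psmd13 were lost without DFC+BCI library a or without the first untreated library, and that of Psmd10 without DFC+BCI library a.

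The assembly chaperones work as pairs, Psmg1 with Psmg2 and Psmg3 with Psmg4, that hold the alpha ring while it closes. Psmg4 had 30.4 and 29.5 FPKM with DFC+BCI, against 36.5 and 37.8 in untreated cells (-0.30, SE 0.0567, adjusted p = 0.00611). Psmg1 had 31.2 and 30.9 FPKM with DFC+BCI, against 36.5 and 35.2 in untreated cells (-0.20, adjusted p = 0.0424). Psmg2 had 28.5 and 28.7 FPKM with DFC+BCI, against 36.3 and 33.0 in untreated cells (-0.27, adjusted p = 0.0495). Treated and untreated libraries did not overlap for these 3 genes, which was also so for uncalled core and cap genes (above). The calls of Psmg1 and Psmg2 were kept in only 6 and 9 of 17 alternative settings. Psmg3 had 21.6 and 19.4 FPKM with DFC+BCI, against 30.5 and 20.5 in untreated cells, which overlap. Its untreated duplicates, 0.55 apart on the log2 scale, were the furthest apart of the 49 genes.

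The alternative activators moved in opposite directions. Psme4 (PA200, chromosome 11 from 30771726 to 30880361), a large nuclear activator that serves degradation of acetylated histones, had 34.1 and 34.1 FPKM with DFC+BCI, against 24.3 and 26.2 in untreated cells. Psme4 thus rose by 33.7% on that scale (log2 fold change 0.42, SE 0.0586, adjusted p = 0.00183), and the call was kept in all 17 alternative settings. Psme4 had 27.8 and 27.4 FPKM with imatinib, DFC and BCI, where it did not pass against untreated cells (0.13, adjusted p = 0.144). Setting the 3 drugs against DFC+BCI alone gave -0.29 for Psme4 (adjusted p = 0.208), which did not pass. Psme3 (PA28 gamma), another nuclear activator, had 87.9 and 91.6 FPKM with DFC+BCI, against 117 and 114 in untreated cells (-0.36, SE 0.0539, adjusted p = 0.00246). Psme2b had 3.997 and 3.71 FPKM with DFC+BCI, against 8.74 and 7.06 in untreated cells (-0.87, adjusted p = 0.00446), with reads possibly shared with Psme2. Psmf1 (0.01), Psma8 (0.09) and Psmc3ip (0.04) did not pass.

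**Figure D2:**
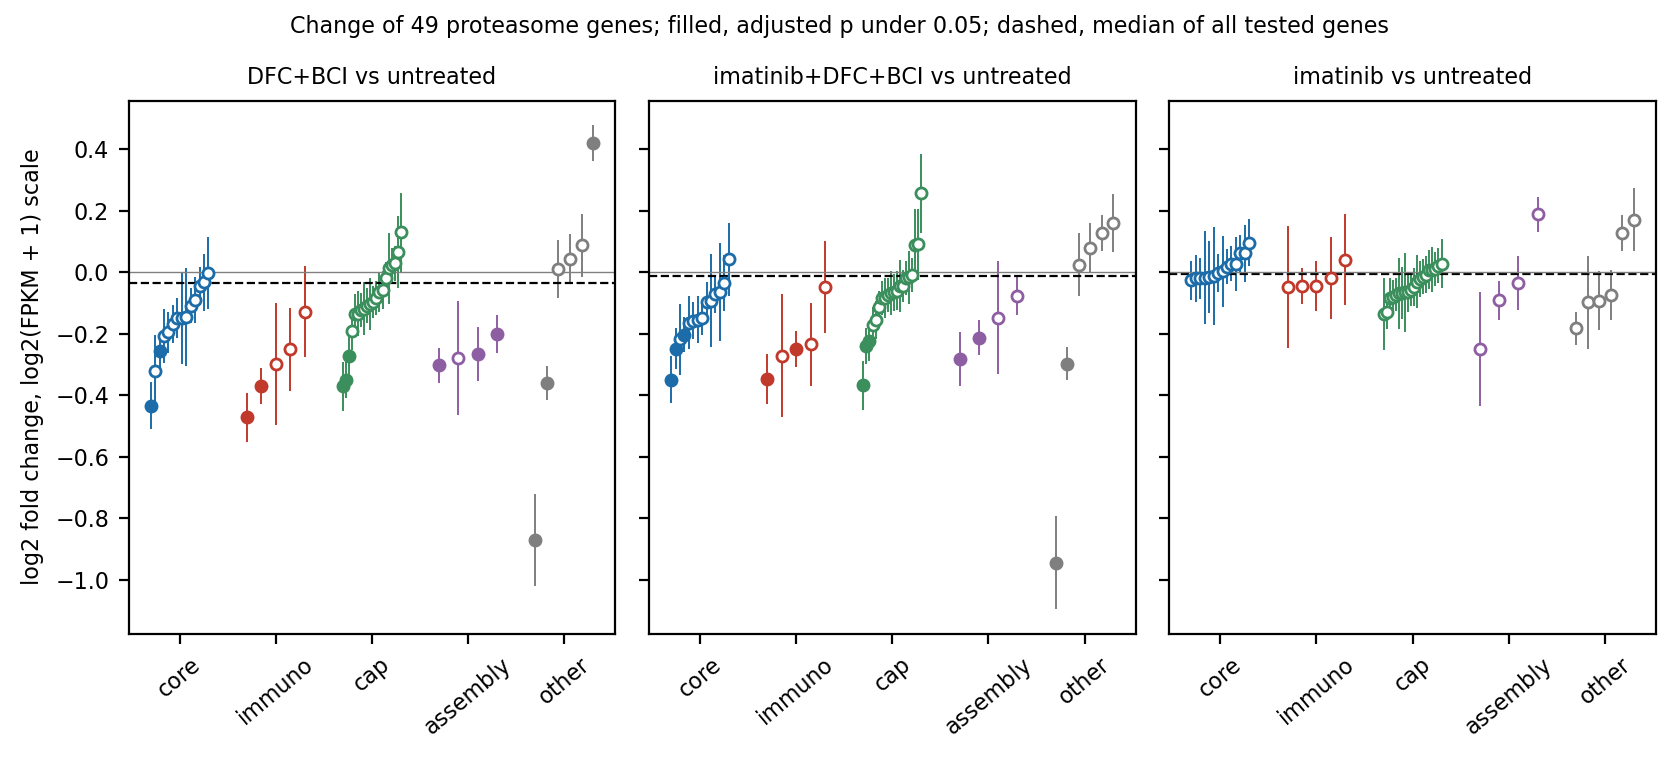
Log2 fold change (y axis, log2(FPKM + 1) scale) of the 49 genes by group in 3 comparisons with untreated cells; bars are standard errors, filled points have an adjusted p under 0.05 and the dashed line is the median of all tested genes. With DFC+BCI 12 filled points lie below 0 and Psme4 above, with all 3 drugs 12 lie below 0, and with imatinib alone there are 0.

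With imatinib, DFC and BCI, 12 proteasome genes were lower than in untreated cells and 0 were higher by limma (also 0 at an unadjusted p under 0.05), against 15.6% and 17.2% of all tested genes. They were Psma2, Psma5, Psmb1, Psme1, Psme2, Psmc1, Psmd6, Psmd10, Psmg2, Psmg4, Psme2b and Psme3. Psme2 had 162 and 183 FPKM with the 3 drugs, against 221 and 218 in untreated cells (-0.35, SE 0.0806, adjusted p = 0.0157), and Psma2 had 191 and 205 against 260.3 and 245 (-0.35, SE 0.0767, adjusted p = 0.0126). Of these 12 genes 10 were also called lower with DFC+BCI (83.3% of each list), but both comparisons share the untreated libraries. The count was 3 without the first untreated library, 7 without the second, 5 and 6 without library a and b of the 3 drugs, and 7 without either DFC+BCI library. Against imatinib, a contrast without the untreated means although the fit shares its variance over all libraries, 11 genes were lower with the 3 drugs and 0 higher by limma (2 at an unadjusted p under 0.05), against 16.0% and 18.6% of all genes. These were Psma1, Psma2, Psma3, Psma5, Psmb1, Psme1, Psme2, Psmc1, Psmd10, Psmg4 and Psme2b. Psmg4 had 32.7 and 31.1 FPKM with the 3 drugs, against 42.5 and 42.5 with imatinib (-0.40, SE 0.0567, adjusted p = 0.00190). That count was 2 without imatinib library a, 3 and 5 without library a and b of the 3 drugs, and 7 without either DFC+BCI library.

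Imatinib alone changed 0 of the 49 genes by limma, with 1 higher and 2 lower at an unadjusted p under 0.05, while 0.481% of all tested genes were called higher and 1.63% lower. The median log2 fold change was -0.02 over the 49 genes and -0.01 over all genes. Psmg4 had 42.5 and 42.5 FPKM with imatinib, against 36.5 and 37.8 in untreated cells (0.19, SE 0.0567, adjusted p = 0.174). Psme3 had 103 and 101 FPKM with imatinib, against 117 and 114 in untreated cells (-0.18, SE 0.0539, adjusted p = 0.166). The third, Psmd7, had a log2 fold change of -0.13. These 3 genes, chosen after their values were seen, did not overlap between the groups. That does not set them apart, since Psma1, Psme1, Psmc2, Psmd8, Psmd11, Psmg1, Psma8 and Psme4 did not overlap either. The share of all tested genes without overlap was not counted. The 3 drugs against DFC+BCI gave 0 called genes, with 0 higher and 1 lower (Psme4) unadjusted and 0.00874% and 0.105% of all genes called. The interaction, which asks whether DFC+BCI acts differently with imatinib, gave 0 called genes, with 2 higher and 1 lower unadjusted and 0.0874% and 0.0612% of all genes called. Psme4 had an interaction of -0.42 (SE 0.0829, adjusted p = 0.137).

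Untreated BCR/ABL cells had more proteasome RNA than the vector control. With 1 vector library there is no test, and a gene was counted when both untreated libraries differed from it by at least 0.5 on the log2 scale in the same direction and the higher group reached 5 FPKM. By that measure 25 of 49 genes were higher and 0 lower, against 11.7% and 12.6% of all tested genes. They were 8 of 14 core, 13 of 20 cap, 2 of 4 assembly, 1 of 5 immunoproteasome and 1 of 6 other genes. The median difference was 0.63 over the 49 genes and 0.00 over all genes, and 47 of 49 were above 0, as they were under median ratio scaling, quantile normalisation and the GC adjustment. The vector library was the lowest of the 11 for 38 of 49 genes, against 21.8% of all genes.

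Psmd12, a lid subunit, had 74.8 and 80.9 FPKM in untreated cells, against 39.3 in the vector control (difference 0.97). Psma5 had 180.2 and 171 FPKM in untreated cells, against 89.3 in the vector control (0.97). Psmc2, a base ATPase, had 89.7 and 87.6 FPKM in untreated cells, against 47.9 (0.87). The untreated means were 1.98 times the vector value for Psmd12 and 1.97 times for Psma5. Psma3 had 170.2 and 183 FPKM in untreated cells, against 95.7 in the vector control (0.87), and Psme3 had 117 and 114, against 63.7 (0.85). Of the immunoproteasome genes, Psme2 had 221 and 218 FPKM in untreated cells, against 125 in the vector control (0.81). Psmb8, Psmb9, Psmb10 and Psme1 were not past the fold, with Psmb8 at 228 and 182 FPKM in untreated cells, against 173 (0.23 to 0.46 over these 4 genes). Psme2b (7.90 FPKM on average in untreated cells, against 8.91) and Psma8 were the 2 genes below 0. Summed monocyte and macrophage markers were 3120 and 3090 FPKM in untreated cells, against 8302 in the vector control. Without their most abundant gene, Lyz2, the sums were 1546 and 1523, against 1515. Ly6c2, the largest of the rest, had 1203 and 1174 FPKM in untreated cells, against 611 in the vector control. Mrc1 and Fcgr1 were also higher in untreated cells, while Csf1r, Cd14, Ccr2, Emr1 and Cd68 were lower. Mast and basophil markers summed to 521 and 543 FPKM in untreated cells, against 1995 in the vector control, and late neutrophil markers were higher in untreated cells (above). The part of these cell types in the difference was not tested.

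**Figure D3:**
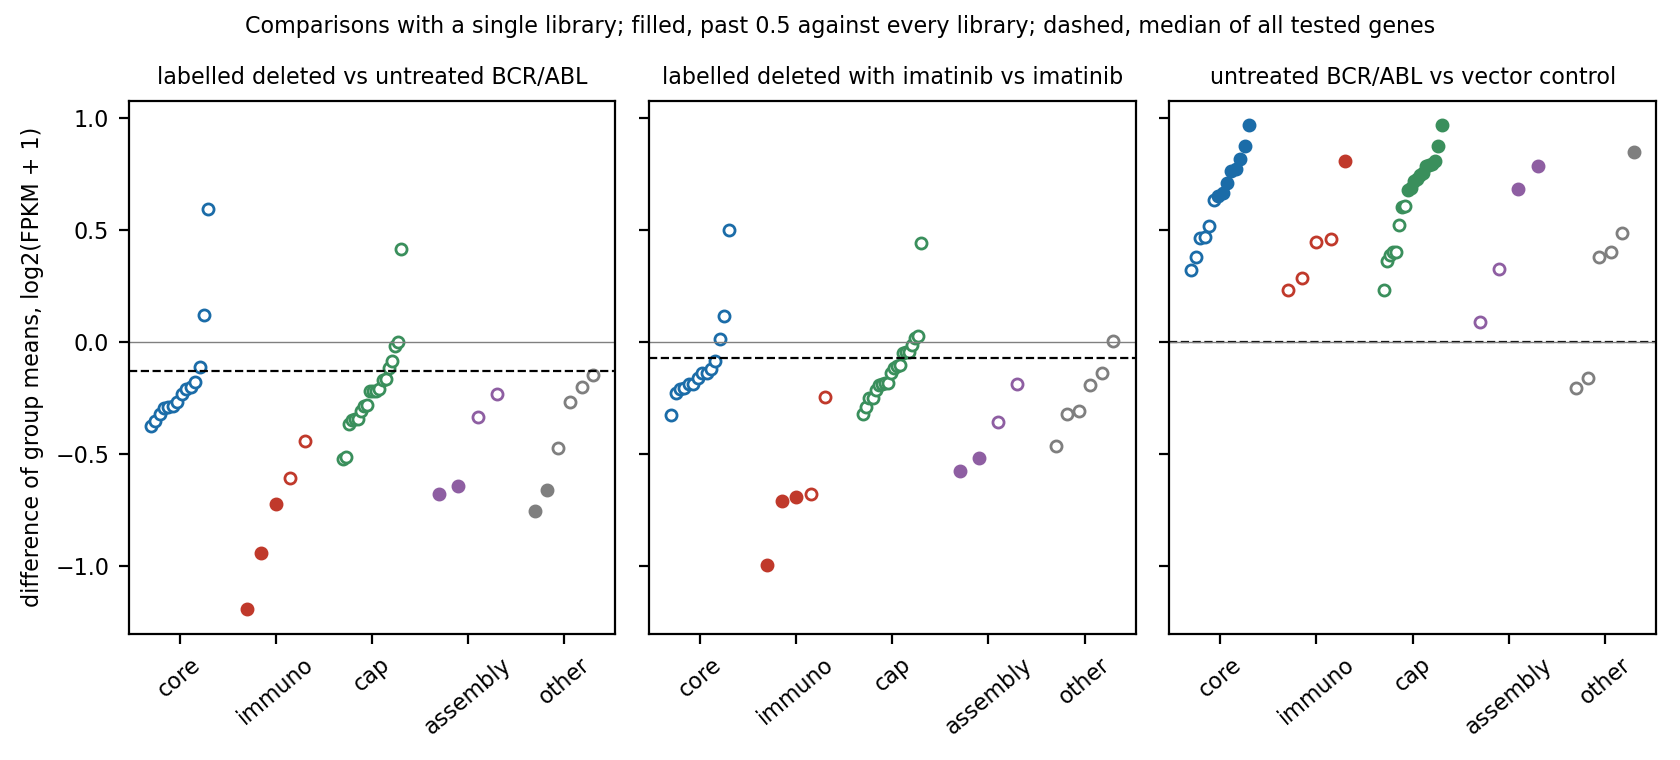
Difference of group means (y axis, log2(FPKM + 1)) of the 49 genes by group in 3 comparisons that have a single library on at least 1 side; filled points are past 0.5 against every library and the dashed line is the median of all tested genes. Immunoproteasome genes lie lowest in the 2 comparisons of libraries labelled deleted, while core and cap genes lie highest in untreated BCR/ABL cells against the vector control.

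In the 2 libraries labelled deleted, immunoproteasome genes stood lowest relative to the wild-type cells. Against untreated cells the library labelled deleted had 7 genes lower and 0 higher past the fold, against 12.9% and 8.46% of all tested genes. The 7 were Psmb8, Psmb9, Psme1, Psmg1, Psmg2, Psme3 and Psmc3ip, and 0 core and 0 cap genes were among them. Without the second untreated library, which relaxes the rule, 11 genes were lower. The median difference was -0.72 over the 5 immunoproteasome genes, -0.49 over the assembly genes, -0.25 over the core, -0.22 over the cap and -0.13 over all genes. Scaling each library by its median ratio to the others gave medians of 0.01 over all genes and -0.55 over the immunoproteasome genes. All 5 immunoproteasome genes lay below 0 under that scaling, quantile normalisation and the GC adjustment. Under median ratio scaling 11 of 14 core genes, 13 of 20 cap genes and 5547 of all 11442 tested genes also lay below 0.

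Psmb9 (chromosome 17 from 34181987 to 34187764, in the MHC region) had 42.1 FPKM in the library labelled deleted, against 114 and 83.3 in untreated cells (difference -1.20). Psmb8 (chromosome 17 from 34197721 to 34201454) had 123 FPKM in the library labelled deleted, against 228 and 182 in untreated cells (-0.72). Psme1 had 94.6 FPKM in the library labelled deleted, against 188 and 179 (-0.95), while its partner Psme2 had 161, against 221 and 218 (-0.44). Psmb10 had 44.9 FPKM in the library labelled deleted, against 81.1 and 58.5 in untreated cells (-0.61, with a gap of 0.37 to the nearer library). All 5 lay below both untreated libraries, but so did most core and cap genes. By the difference of group means, 12 of 14 core genes, 19 of 20 cap genes and 7053 of all 11442 tested genes were below 0. Psmg1 had 22.0 FPKM in the library labelled deleted, against 36.5 and 35.2 in untreated cells (-0.68), Psmg2 had 21.8, against 36.3 and 33.0 (-0.64), and Psme3 had 67.9, against 117 and 114 (-0.76). Under median ratio scaling 4 genes were lower past the fold, Psmb9 (-1.02), Psme1 (-0.77), Psmg1 (-0.51) and Psme3 (-0.58), and 2 higher, Psmb6 and Psmd8. With the GC adjustment 5 were lower and the same 2 higher.

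With imatinib, Psmb8, Psmb9, Psme1 and Psmg1 were again past the fold. The library labelled deleted with imatinib had 5 genes lower and 0 higher than imatinib-treated wild-type cells past the fold, against 6.09% and 5.86% of all genes. Psmb9 had 49.9 FPKM in the library labelled deleted with imatinib, against 93.0 and 109 in imatinib-treated wild-type cells (-0.996). Psmb8 had 122 FPKM, against 185 and 218 (-0.71), Psme1 had 109, against 179 and 176 (-0.69), Psmg1 had 22.2, against 35.1 and 32.1 (-0.58), and Psmg4 had 29.4, against 42.5 and 42.5 (-0.52). Of the 7 and 5 genes, Psmb8, Psmb9, Psme1 and Psmg1 were in both lists. The 2 comparisons share no library. Whether the 2 libraries labelled deleted came from separate animals is not stated, so the lists may not be independent. One of the 2 libraries labelled deleted was the lowest of the 11 for 4 of 5 immunoproteasome genes, against 33.2% of all genes. Between the 2 libraries labelled deleted, with imatinib against without, 0 of 49 genes were past the fold, against 0.743% higher and 1.84% lower of all genes. Progenitor markers summed to 466 and 387 FPKM in these libraries, with and without imatinib, against 1407 and 1070 in untreated cells, and mast and basophil markers to 120 and 86.9, against 521 and 543. Late neutrophil markers summed to 15466 and 13988 FPKM in these libraries, with and without imatinib, against 22433 and 23705 in untreated cells. S100a8, S100a9, Ngp, Ltf and Retnlg were lower in both. Mmp8 was higher, at 640 and 782 FPKM, against 302 and 351. Camp had 228 and 179 FPKM, against 198 and 171. Monocyte and macrophage markers summed to 5380 and 6379, against 3120 and 3090, but without Lyz2 to 1365 and 1533, against 1546 and 1523. The largest of the rest, Ly6c2, was lower, at 760 and 707 FPKM, against 1203 and 1174. Csf1r, Cd14, Ccr2, Emr1 and Cd68 were each higher in both these libraries than in untreated cells. Cd14, for example, had 138 and 186 FPKM, against 30.2 and 30.9. Mrc1 and Fcgr1 were higher without imatinib and lower with it. The part of these cell types in the low immunoproteasome values was not tested.

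The constitutive catalytic subunit Psmb6 went the other way. It had 182 FPKM in the library labelled deleted with imatinib, against 119 and 139 in imatinib-treated wild-type cells, and 197 in that labelled deleted, against 144 and 117 in untreated cells (difference 0.59). It was just short of the fold as deposited and past it under median ratio scaling (0.77). The lid subunit Psmd8 had 202 and 209 FPKM in the libraries labelled deleted with and without imatinib, and 119 to 159.9 in the other 9 libraries, with a difference from untreated cells of 0.41 as deposited and 0.59 under median ratio scaling in the library labelled deleted. Psmb6 and Psmd8 were singled out after their values were seen.

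Set as ratios within a library, the inducible subunits were low against their constitutive counterparts in both libraries labelled deleted. Scaling a library by a single factor does not change such a ratio. Quantile normalisation and the GC adjustment can, and the ratios were not computed under them. Psmb9 over Psmb6 was 0.692 and 0.719 with the 3 drugs, 0.726 and 0.652 with DFC+BCI, 0.781 and 0.781 with imatinib, 0.274 in the library labelled deleted with imatinib, 0.214 in that labelled deleted, 0.794 and 0.710 in untreated cells, and 0.754 in the vector control. Psmb8 over Psmb5 was 0.989 and 0.959 with the 3 drugs, 1.04 and 0.996 with DFC+BCI, 1.12 and 1.06 with imatinib, 0.613 and 0.609 in the libraries labelled deleted with and without imatinib, 1.05 and 1.14 in untreated cells, and 1.59 in the vector control. Psmb10 over Psmb7 separated the groups less, at 0.255 and 0.275 in the libraries labelled deleted with and without imatinib, 0.286 to 0.431 in the 8 drug-treated and untreated wild-type BCR/ABL libraries, and 0.523 in the vector control. The vector control thus had the highest Psmb8 and Psmb10 ratios of the 11 libraries but not the highest Psmb9 ratio. A ratio shows unequal levels and not which subunit changed, and with 2 libraries against 2 the smallest 2-sided exact permutation p is 0.333.

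**Figure D4:**
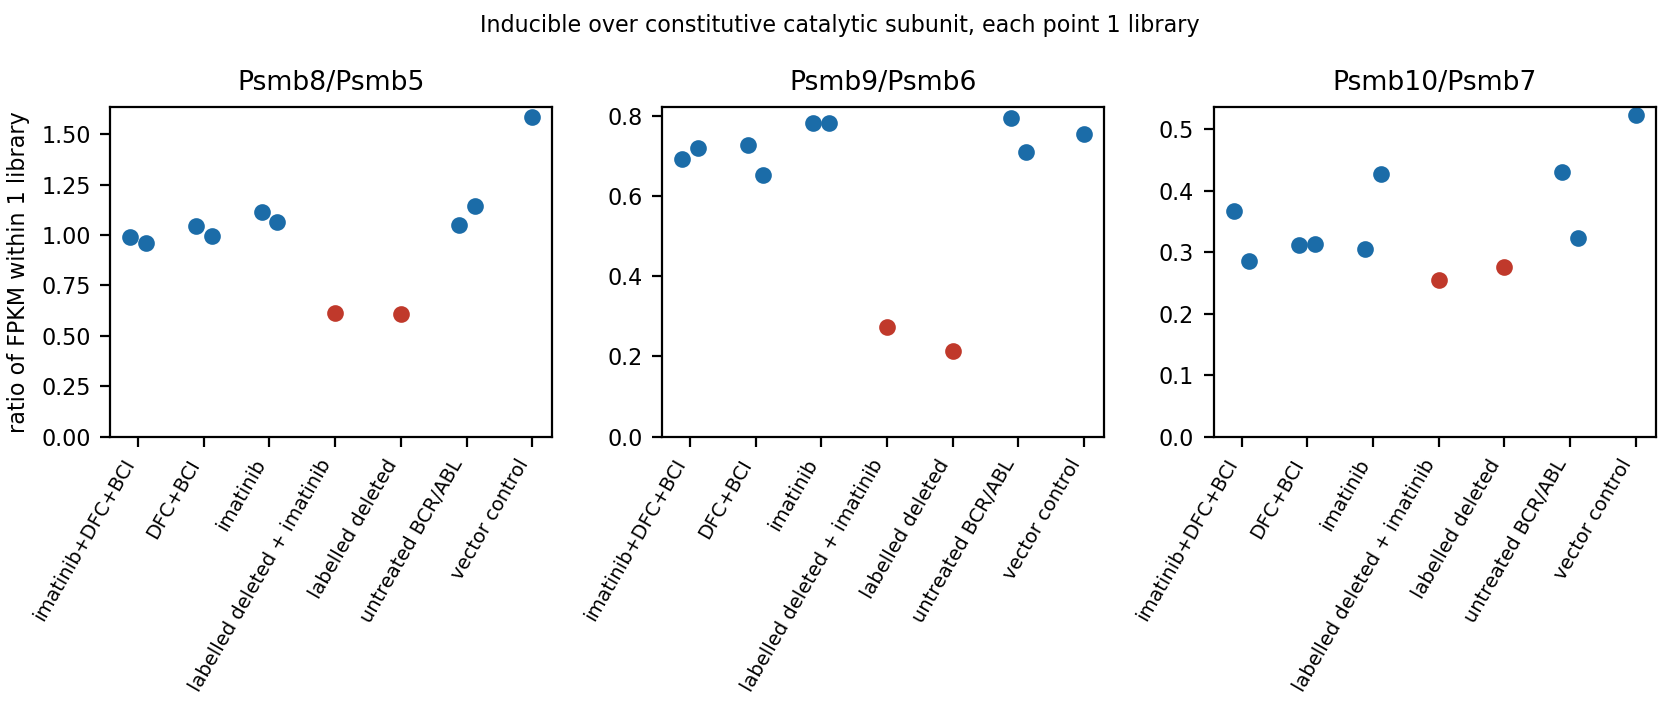
FPKM ratio of each inducible catalytic subunit to its constitutive counterpart (y axis, from 0) in each library, by group; each point is 1 library and red points are the libraries labelled deleted. Psmb9 over Psmb6 is 0.214 and 0.274 in those libraries and 0.652 to 0.794 in the other 9.

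Genes of interferon signalling and MHC class I presentation, which share regulators with the immunoproteasome, were low in the same libraries. Of 16 such genes, 11 were lower and 1 higher (Irf8) past the fold in the library labelled deleted against untreated cells, when 12.9% of all tested genes were lower and 8.46% higher. In the pair with imatinib 10 were lower and 1 higher, when 6.09% and 5.86% of all genes were. Tap1 had 40.1 FPKM in the library labelled deleted, against 99.96 and 82.4 in untreated cells. Irf1, a transcription factor that binds interferon response elements, had 24.0 FPKM in the library labelled deleted, against 53.4 and 47.5 in untreated cells, and Nlrc5, the MHC class I transactivator, had 8.06, against 14.8 and 15.3. With DFC+BCI, 3 of the 16 were called higher and 6 lower, against 17.8% and 18.4% of all genes. Irf1 had 157 and 151 FPKM with DFC+BCI, against 53.4 and 47.5 in untreated cells (log2 fold change 1.59, SE 0.0867, adjusted p = 2.81e-05). Tap1 (-0.05, adjusted p = 0.768) and Nlrc5 (-0.18, adjusted p = 0.302) did not pass. Irf1 stood above both untreated libraries in all 4 libraries with DFC+BCI and below them in both libraries labelled deleted.

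A list of 30 measured genes covers ubiquitin supply, shuttling, assembly and transcriptional control of the proteasome, and includes the cap subunits Adrm1 and Shfm1, whose symbols fall outside the rule and which did not pass with DFC+BCI. Of the 30, 10 were higher with DFC+BCI (33.3%) and 2 lower (6.67%), against 17.8% and 18.4% of all tested genes. With imatinib alone 0 passed (1 higher and 1 lower unadjusted). Zfand2a, an arsenite- and heat-inducible adaptor of the cap, had 83.6 and 75.6 FPKM with DFC+BCI, against 15.8 and 16.3 in untreated cells (2.24, SE 0.0746, adjusted p = 6.50e-06). Zfand5, a ubiquitin-binding activator of the cap, had 42.8 and 42.7 FPKM with DFC+BCI, against 15.3 and 15.3 (1.43, adjusted p = 1.31e-05). The treated libraries stood far above the untreated ones for both genes. Ubb, a polyubiquitin gene, rose less (0.53, adjusted p = 0.0317), with untreated duplicates at 513 and 356 FPKM.

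Pomp, the chaperone that matures the beta ring, fell with DFC+BCI, at 125 and 136 FPKM, against 209 and 198 in untreated cells (-0.64, SE 0.0731, adjusted p = 0.000761). It fell with the 3 drugs too, at 138 and 146 FPKM (-0.51, adjusted p = 0.00213). Ube3c, a ubiquitin ligase of the cap, also fell (-0.29, adjusted p = 0.0117). Nfe2l1, the transcription factor that raises subunit genes when proteasome activity drops, did not pass (0.19, SE 0.0670, adjusted p = 0.0667), whereas Nfe2l2, the oxidative stress factor, had 106 and 103 FPKM with DFC+BCI, against 64.2 and 65.9 in untreated cells (0.67, adjusted p = 0.000411). Ddi2, the protease that activates Nfe2l1, was called higher (0.26, adjusted p = 0.0264). Zfand2a was also past the fold in the library labelled deleted, at 43.8 FPKM, against 15.8 and 16.3 in untreated cells.

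Duplicates of the proteasome genes differed along GC content. Across the 49 genes, which are not independent replicates, the first minus the second untreated library had a Pearson correlation of 0.71 with the GC content of the longest transcript (0.42 over 10850 genes), and imatinib library a minus b had -0.65 (-0.34 over those genes). The imatinib and untreated duplicate differences were correlated at -0.82 over the 49 genes. Psmb10, at 56.5% GC, differed by 0.47 between the untreated duplicates, and Psma2, at 39.4% GC, by 0.09. With values adjusted for GC content, 19 genes were lower with the 3 drugs than with imatinib, in place of 11, and Psme4 passed in the interaction (adjusted p = 0.0430).

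**Figure D5:**
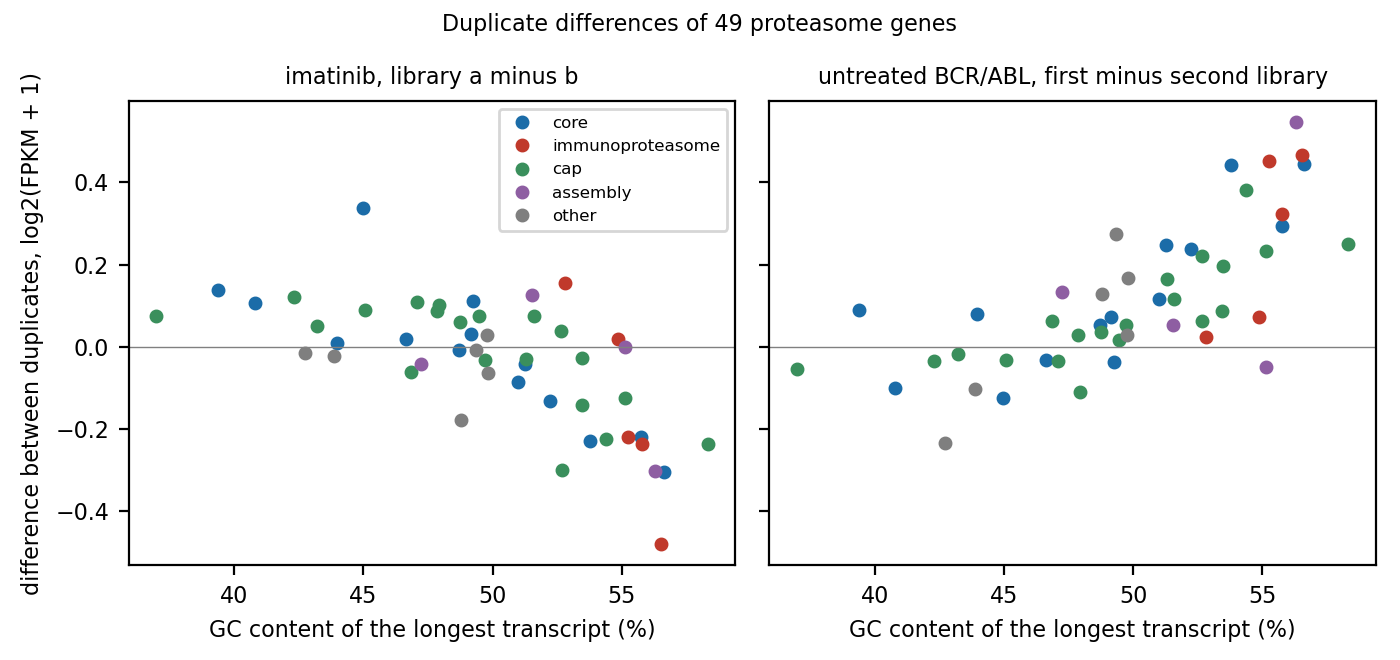
Difference between duplicates in log2(FPKM + 1) (y axis) against GC content of the longest transcript in percent (x axis) for the 49 genes, coloured by group, in imatinib and untreated cells. The trend falls in imatinib cells (correlation -0.65) and rises in untreated cells (0.71).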

How the data were processed

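Kit+ bone marrow cells gave 11 libraries, made with a stranded mRNA kit from total RNA, per the labels' protocols. Per the submitters' processing notes the authors used TopHat, Cufflinks and the mm10 build, with no version named. Values deposited by the authors carry no unit in the header and were read as FPKM because of their form, and an exact 0 can be a failed estimate. Read counts were not used here, so no count test or counting interval is given.

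No rescaling was applied before taking log2(FPKM + 1), a scale on which low genes show smaller changes. A gene was tested if 2 or more libraries reached 1 FPKM, which 11442 of 23444 rows did, and 27 rows whose symbols had become dates could not be named. For the 6 comparisons of replicated groups, 1 limma-trend fit (limma 3.58.1, R 4.3.3) held all 11 libraries with 7 group coefficients, 4 residual and 3.20 prior degrees of freedom. Tests were 2-sided, with Benjamini-Hochberg adjustment over every gene tested and calls at an adjusted p under 0.05. Comparisons with a lone library have no test: a gene was past the fold when every library of 1 group differed from every library of the other by at least 0.5 on the log2 scale, with 5 FPKM in the higher group. Fitting was tested on simulated data.

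Groups came from the labels. The deposited column names do not say which untreated library is which, so first and second name them by column. Members and lists were chosen with earlier results of these data known. Values by library are given for the immunoproteasome and assembly genes, for up to 5 called core, cap and other genes per direction with DFC+BCI, for up to 5 genes past the fold per direction in each comparison with a lone library, and for the highest and lowest gene of a class by mean; exceptions are named as such. Alternatives were the pseudocount, the filter, quantile normalisation, median ratio scaling, fits of only the groups compared, no trend and leaving out each library; the GC adjustment, the leaving out of libraries in the comparisons with a lone library and the marker sums without Lyz2 were chosen after seeing the data. Gene positions and GC content come from GENCODE vM21 (GRCm38), promoters from RefSeq (GRCm38.p6). Doses are not given because their unit in the labels is in doubt. Some genes and 1 motif of the lists counted are not reported by name here.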

Additional observations from a re-analysis of the deposited data

Results flagged for a closer look

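For 6 proteasome genes, in values as deposited, both imatinib-treated wild-type libraries lay on one side of both untreated libraries, and the library labelled deleted with imatinib lay on the other side of the library labelled deleted. How many of all tested genes met the same rule was not counted, so no excess among the proteasome genes is claimed. The difference between these effects was not tested, and each effect in the libraries labelled deleted rests on 1 library against 1. The imatinib effect in the libraries labelled deleted minus that in wild-type cells, on the log2 scale, was 0.25 for the activator subunit Psme1, 0.29 for the activator Psme3 and -0.28 for the chaperone Psmg4. It was 0.10 for the base ATPase Psmc2 (0.0973), 0.11 for the lid subunit Psmd11 (0.111) and 0.10 for the chaperone Psmg1 (0.105). The count rests on unscaled values: under median ratio scaling, quantile normalisation and the GC adjustment, tried after seeing the data, 2 of the 6 (Psmg4 and Psme3) still met it. In the libraries labelled deleted the effects of Psmc2 (0.039), Psmd11 (0.031) and Psmg1 (0.013) were small as deposited, and under median ratio scaling they were -0.029, -0.038 and -0.054, the sign seen in wild-type cells. For Psme1 the effect was 0.21 in the libraries labelled deleted and -0.05 in wild-type cells. None of these 6 genes passed limma for imatinib against untreated cells, and 0 of the 49 were past the fold between the libraries labelled deleted.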

How the results depend on the processing

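No alternative reversed a direction of a called gene, and of the alternatives run for single genes 924 kept the side of the threshold, 132 lost a call and 15 gained one. The 924 include genes without a call that stayed without one, so they do not measure how often a call was kept. Psma2, Psme1, Psme2, Psmc1, Psmg4, Psme2b, Psme3 and Psme4 kept their calls for DFC+BCI in all 17 alternatives. Leaving out 1 library at a time gave 7 to 12 genes lower and 1 higher with DFC+BCI. The count lower with the 3 drugs against untreated cells was 5 with quantile normalisation, 5 with only the groups compared and 3 to 11 without 1 library; the count higher, 0 as reported, was 1 with the GC adjustment (Psmd4) and 0 to 1 without 1 library. Against imatinib the count lower with the 3 drugs was 4 with quantile normalisation, 5 with only the groups compared, 19 with the GC adjustment and 2 to 12 without 1 library. The count higher there was 1 with quantile normalisation (Psmd4), 2 with median ratio scaling (Psmd4 and Psmf1), 2 with the GC adjustment and 0 to 1 without 1 library. The interaction had 1 gene lower with the GC adjustment (Psme4, -0.42 as reported). At a difference of 1 in place of 0.5, 0 genes were past the fold in the 3 comparisons of untreated cells with the vector control and of the libraries labelled deleted with wild-type cells. Without 1 library the counts at 0.5 were 25 to 37, 9 to 11 and 6 to 6, in that order. Leaving out a library relaxes a rule that asks every library to differ, so these counts could hardly fall. The library labelled deleted with imatinib against imatinib had 3 genes past the fold with a pseudocount of 5 and 3 with quantile normalisation. The cause was not tested, except that fits of fewer groups or libraries have fewer residual degrees of freedom. No paired analysis was possible because the deposited untreated columns carry no replicate number and those of the treated cells carry letters in place of the labels' numbers. Depth is unknown, 4 groups have 2 libraries and 3 have 1, and the first untreated library and imatinib library a decide several counts.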
